A study of Mus musculus with 8 samples.

Results

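The genes described here are the HIF factors and the enzymes that sense oxygen for them. They are the alpha subunit genes *Hif1a* and *Epas1*, the gene of their partner *Arnt*, the ubiquitin ligase gene *Vhl*, the prolyl hydroxylase genes *Egln1*, *Egln2* and *Egln3*, and the asparaginyl hydroxylase gene *Hif1an*. These 8 genes were taken by symbol from the 55385 genes of the count table. The symbols come from the known pathway and not from a threshold on any value, though they were picked with earlier results of these data known. All 8 were among the 17445 genes that passed the expression filter and were tested. The RNA-Seq experiment used R1 cells, a WT mouse embryonic stem cell (mESC) line grown without serum in N2B27 medium with LIF and 2i, on plates coated with poly-L-ornithine and laminin. Every group underwent a lentiviral infection of 2 days and a puromycin selection of 3 days. In 3 libraries the virus carried shRNA1 and in 3 it carried shRNA2, which are independent hairpins against the 3′ UTR and the coding sequence, respectively, of *Eftud2*, a core spliceosome gene. In 2 libraries it carried nt-shRNA, a hairpin with no target, so the controls shared the genotype, the medium, the infection and the selection with both knockdowns (KDs). Infection was transient and the cells were of 1 line, and the same 2 control libraries stand in both comparisons against nt-shRNA, which therefore share them.

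HIF is a transcription factor made of an oxygen-labile alpha subunit and the stable partner ARNT. When oxygen is present, the EGLN enzymes (also called PHDs) hydroxylate prolines of the alpha subunits, VHL binds the hydroxylated form, and the ligase around VHL marks it for degradation. HIF1AN, also called FIH, hydroxylates an asparagine that otherwise lets the alpha subunit recruit the coactivators CBP and p300. When oxygen is scarce these reactions slow, the alpha subunits accumulate, and genes of glycolysis, angiogenesis and mitophagy are transcribed, among them *Egln1* and *Egln3* themselves. Oxygen acts on the proteins in this pathway, and the values below are of RNA alone.

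Total counts ran from 19569525 to 29871048 per library, and the smallest count of any member in any library was 235 (*Egln3*), so that counting error was at most 6.52% of a value. Values per library are given as normalized CPM (counts of a gene scaled to a common library size, here by the TMM method). Differences were tested with edgeR's quasi-likelihood test and called at a Benjamini-Hochberg adjusted p under 0.05 over all tested genes. The targeted *Eftud2* was at 262.3 and 255.7 CPM in nt-shRNA, 231.9, 229.2 and 225.3 in shRNA1, and 198.2, 202.1 and 234.7 in shRNA2. Every KD library lay below both controls, with a log2 fold change of -0.18 in shRNA1 (adjusted p = 0.0514) and of -0.29 in shRNA2 (adjusted p = 0.00122). The shRNA1 difference was called in 6 of 15 alternative settings, with an adjusted p from 0.0206 with the replicate number as a block to 0.498 with library size alone (-0.06). On the TPM scale explained below, *Eftud2* averaged 89.5 in nt-shRNA, 93.1 in shRNA1 and 85.3 in shRNA2. There shRNA1 turned higher and the range of shRNA2 overlapped the controls. KD here names the hairpin used, and the counts of shRNA1 gave no called decrease of *Eftud2* in the full fit. The DESeq2 Wald test, from the tool the authors used, did call it (-0.18, adjusted p = 0.0487). The study also reported lower *Eftud2* RNA by qPCR and less EFTUD2 protein with either shRNA. The 10 naive pluripotency markers, led by *Nanog*, were all tested and summed to 4523 to 4590 CPM in nt-shRNA, 5060 to 5227 in shRNA1 and 6022 to 6199 in shRNA2. Of 7 fibroblast markers 3 passed the filter, and the list summed to 4.60 to 5.02, 6.52 to 7.34 and 6.28 to 7.57 CPM in the same order of groups. The 6 endothelial markers, of which *Pecam1* held most, summed to 106 to 113, 109 to 115 and 125 to 138 CPM. Summed CPM was 23.2 to 23.7, 22.0 to 26.1 and 17.6 to 19.5 for primitive endoderm, 117 to 118, 101 to 111 and 88.2 to 92.7 for trophoblast, and 80.1 to 82.4, 69.9 to 79.0 and 60.5 to 70.8 for neural markers. Within lists, single markers did not all move with the sum. In shRNA1, 6 of 10 naive markers were called higher and 1 lower, and 2 of 5 neural markers higher and 1 lower. In shRNA2 these were 7 and 1, and 1 and 1. Of 4 tested endothelial markers 2 rose and 0 fell in shRNA1, and 2 rose and 1 fell in shRNA2. In each KD, 1 fibroblast marker was called higher and 1 trophoblast marker lower. Of primitive endoderm markers, 0 were called in shRNA1 and 1 was lower in shRNA2. Of all tested genes, 13.8% were called higher and 17.1% lower in shRNA1, and 27.2% and 28.7% in shRNA2. No marker was at 0 in every library, and the part of these shifts in the results below was not tested. In a bulk culture, fewer cells of a type and less RNA per cell cannot be told apart.

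HIF binds DNA at a short core, ACGTG or GCGTG. Because *Egln1* and *Egln3* are themselves known targets of HIF, the ACGTG matches before the start sites of the members are shown first. RefSeq (GRCm38.p6) gave a promoter of 250 bases before and 50 bases after the start site for 7 of the 8 members, and none was given for *Epas1*. For *Egln2* it gave a further promoter, chr7:27165679-27165978, which held no ACGTG, so the *Egln2* matches below are those of the other promoter. ACGTG on either strand was found in the promoters of *Hif1a*, *Egln1*, *Egln2* and *Egln3*, and was not in the windows of *Arnt*, *Vhl* and *Hif1an*. It was in 19.6% of all 32851 promoters of this length, a share of promoters and not of the 27025 genes they belong to. GCGTG was in 32.4% of these promoters and, among the members, in those of *Arnt*, *Egln1* and *Egln2*. The *Egln1* match had a T before it (TACGTG, in 3.23% of all promoters) and its first base was at position -68 from the start site, and that of the *Egln3* match was at -229. The *Hif1a* promoter had a match at position -70 from its start and another at -134, inside CACGTG, a palindrome that reads ACGTG on both strands (in 7.15% of all promoters). A second *Egln2* match lay in a CACGTG at its start site. The RefSeq starts of *Hif1a* and *Egln1* lie inside the spans of these genes given below, which begin further upstream. The matches of these genes therefore also lie inside those spans. A match describes letters and is not a binding site shown by these data. The windows are written 5′ to 3′ on the gene's strand, with ACGTG in capitals.
*Egln1*, chr8:124949306-124949334, minus strand: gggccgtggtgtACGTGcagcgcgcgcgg
*Egln3*, chr12:54204087-54204115, minus strand: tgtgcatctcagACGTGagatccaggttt
*Egln2*, chr7:27166834-27166862, minus strand: agcctcctgtcaACGTGcggttcgcgcac
*Hif1a*, chr12:73907785-73907813, plus strand: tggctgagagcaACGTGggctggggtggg
*Hif1a*, chr12:73907721-73907749, plus strand: acacagacaagcACGTGagcggggcagct

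The members differed widely in how their RNA compared with the controls. *Egln3* changed most, since it fell by 47.3% in shRNA1 and fell by 64.4% in shRNA2. *Epas1*, *Arnt* and *Egln1* fell by smaller steps with both shRNAs, although the shRNA1 decrease of *Arnt* did not hold on a TPM scale and that of *Egln1* was not called without nt-shRNA replicate 2 (-0.12, adjusted p = 0.413) or with library size alone (adjusted p = 0.0748). *Hif1a* fell with shRNA2, *Hif1an* rose with shRNA2, and *Vhl* and *Egln2* passed the test in no comparison. In shRNA1, 4 of 8 members were called and all 4 were lower, against 30.9% of all tested genes called in either direction, 13.8% higher and 17.1% lower. With library size alone 2 members were called, both lower, while of all tested genes 4101 were called higher and 1713 lower, a balance opposite to that above. In shRNA2, 6 of 8 were called, 5 of them lower, against 55.9% of all tested genes called, 27.2% higher and 28.7% lower. The median log2 fold change of the members was -0.17 in shRNA1 and -0.32 in shRNA2, beside -0.01 and 0.00 for all tested genes. Called members were thus 50% and 75% of the list, above the background by 1 or 2 genes of 8, so these counts say little about the members as a set. The CPM of KD and control libraries did not overlap for 5 members in shRNA1 and for 6 in shRNA2, beside 56.8% and 71.4% of all tested genes.

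**Figure D1:**
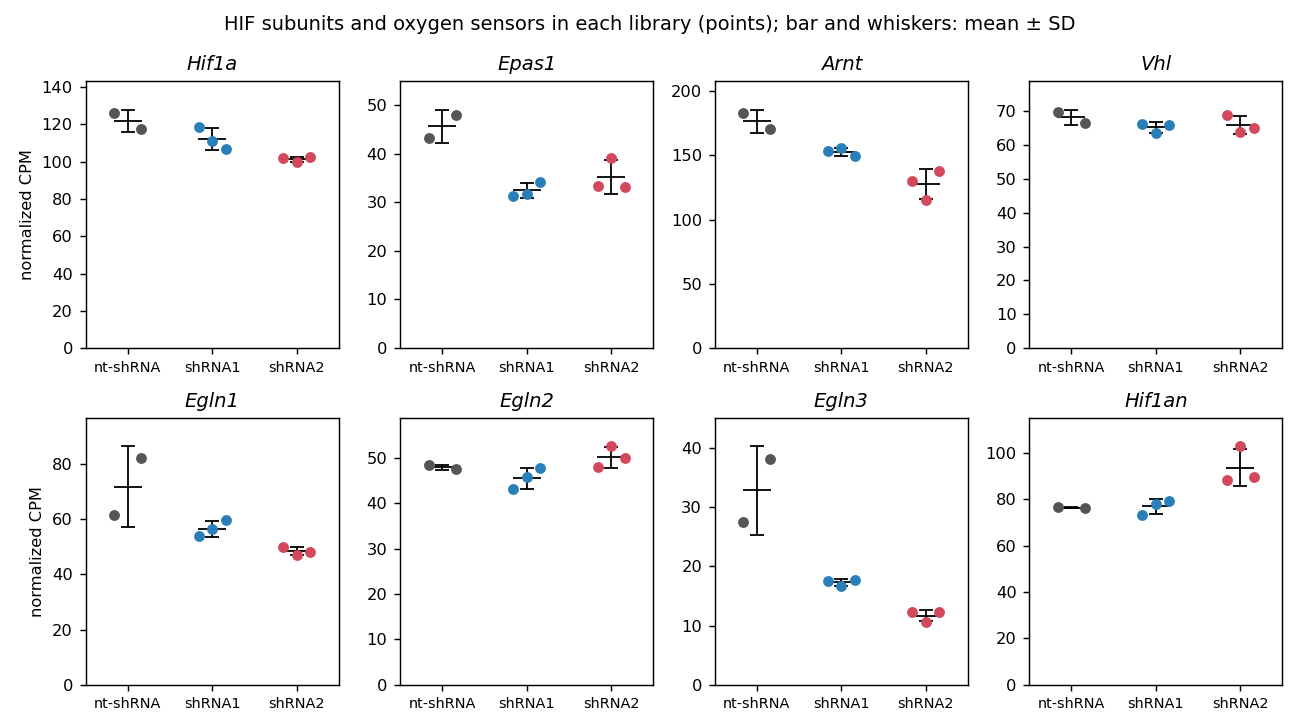
Normalized CPM of the 8 members in each library (points), with the mean and SD of each group, n = 2 for nt-shRNA and 3 for each shRNA. *Egln3* lies at 27.5 and 38.05 CPM in nt-shRNA, between 16.6 and 17.7 in shRNA1 and between 10.6 and 12.2 in shRNA2, while *Vhl* stays between 63.4 and 69.8 throughout.

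*Hif1a* encodes the alpha subunit that is present in most cells. It lies on chromosome 12 of GRCm38 from 73901375 to 73947530 on the plus strand. It stood at 126.1 and 117.7 CPM in nt-shRNA, 118.3, 111.2 and 106.7 in shRNA1, and 101.9, 99.8 and 102.3 in shRNA2. The shRNA1 libraries reached into the control range, and the shRNA2 libraries lay below every other library. The log2 difference of shRNA1 was -0.12 (standard error 0.0626, 95% interval -0.25 to 0.01, adjusted p = 0.1497). With shRNA2 the RNA fell by 0.27 on the log2 scale (standard error 0.0627, adjusted p = 0.00135), a decrease that was called in all 15 alternative settings, although in TPM the groups overlapped (means of 58.1 and 59.9). Between the shRNAs the difference was -0.14 (adjusted p = 0.0546), and 4 of 15 settings called it, with the lowest adjusted p at 0.0243 when shRNA1 replicate 3 was left out. In the annotation used here, 8.11% of the *Hif1a* exon bases were shared with other genes, namely with *Gm15283* on the opposite strand and with *Gm49321*. These had 17 to 30 counts and 0 counts per library, beside at least 2192 for *Hif1a*. These counts do not show how many reads over the shared bases were given to neither gene. The level of *Hif1a* per length, given below, may therefore be too low.

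*Epas1*, the gene of HIF2 alpha, a subunit best known from endothelium and from control of erythropoietin, lies on chromosome 17 from 86753700 to 86833410. It was at 43.1 and 48.0 CPM in nt-shRNA, 31.3, 31.7 and 34.2 in shRNA1, and 33.3, 39.1 and 33.1 in shRNA2. All KD libraries lay below both controls, and the ranges of the shRNAs overlapped. *Epas1* fell by 0.49 on the log2 scale with shRNA1 (standard error 0.0856, adjusted p = 2.69e-04). With shRNA2 it fell by 0.37 (standard error 0.0856, adjusted p = 0.00107). Among the members called with both shRNAs it was the only one with the larger decrease in shRNA1, but the difference between the shRNAs, 0.12 with a 95% interval from -0.05 to 0.28, did not pass the test (adjusted p = 0.273). Of the summed RNA of both alpha subunits per length, *Hif1a* held 69.9% and 73.5% in nt-shRNA, 74.7% to 78.2% in shRNA1 and 70.7% to 74.5% in shRNA2, so the share was higher in shRNA1 than in either control and overlapped the controls in shRNA2.

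*Arnt*, also known as HIF1 beta, is the partner of either alpha subunit and of the dioxin receptor AHR. It lies on chromosome 3 from 95434388 to 95497240. Its level was 183.0 and 170.3 CPM in nt-shRNA, 153.4, 155.4 and 149.5 in shRNA1, and 130.5, 115.1 and 138.1 in shRNA2. The groups followed each other without overlap, with nt-shRNA highest and shRNA2 lowest. *Arnt* fell by 0.47 on the log2 scale in shRNA2 (standard error 0.0697, adjusted p = 1.45e-05) and was 0.26 lower there than in shRNA1 (standard error 0.0634, adjusted p = 0.00409). With shRNA1 it fell by 0.21 (standard error 0.0696, adjusted p = 0.0280), though it was higher in TPM, and this call was lost in 6 of 15 settings. Those were library size alone (adjusted p = 0.321), at least 10 counts in every library (0.0542), and leaving out shRNA1 replicate 1 (0.0630), 2 (0.0573) or 3 (0.0537) or nt-shRNA replicate 1 (0.264).

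The prolyl hydroxylases did not move as a group. *Egln1* encodes PHD2, the main enzyme that sets HIF1 alpha levels in normal oxygen, and lies on chromosome 8 from 124908587 to 124949324. It was at 61.4 and 82.2 CPM in nt-shRNA, 53.9, 56.3 and 59.6 in shRNA1, and 49.9, 47.0 and 48.3 in shRNA2. The highest shRNA1 library was close below the lower control, and the second control was itself 1.34 times the first. *Egln1* fell by 0.34 on the log2 scale in shRNA1 (standard error 0.0917, adjusted p = 0.00790) and by 0.57 in shRNA2 (standard error 0.0923, adjusted p = 3.57e-05). Without nt-shRNA replicate 2 the differences were -0.12 (adjusted p = 0.413) and -0.35 (adjusted p = 0.00492), so that the shRNA1 call was lost and the shRNA2 call held. Without nt-shRNA replicate 1 they were -0.54 (adjusted p = 3.48e-04) and -0.77 (adjusted p = 1.26e-06). *Egln1* was 0.23 lower in shRNA2 than in shRNA1 (adjusted p = 0.0435), and this call was lost when any 1 of the 6 KD libraries was left out (adjusted p from 0.0505 to 0.148).

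*Egln2*, the gene of PHD1, lies on chromosome 7 from 27158658 to 27166802. Its level was 48.3 and 47.5 CPM in nt-shRNA, 43.1, 45.7 and 47.6 in shRNA1, and 47.9, 52.5 and 49.98 in shRNA2, so the KD groups overlapped the controls. The log2 difference was -0.08 in shRNA1 (95% interval -0.23 to 0.08, adjusted p = 0.459) and 0.06 in shRNA2 (95% interval -0.09 to 0.22, adjusted p = 0.466). These intervals leave out a change in *Egln2* as large as that of *Egln3*. The shRNA2 libraries were all above the shRNA1 libraries, by 0.14 on the log2 scale, which did not pass the test (adjusted p = 0.105).

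*Egln3* encodes PHD3, the hydroxylase that is most strongly induced by HIF in many cell types, and lies on chromosome 12 from 54178981 to 54203860. It was at 27.5 and 38.05 CPM in nt-shRNA, 17.5, 16.6 and 17.7 in shRNA1, and 12.2, 10.6 and 12.2 in shRNA2. The 3 groups were separate, with the shRNA libraries tightly grouped and the controls apart from each other. *Egln3* fell by 47.3% in shRNA1, -0.92 on the log2 scale (standard error 0.115, 95% interval -1.16 to -0.68, adjusted p = 8.28e-06). In shRNA2 it fell by 64.4%, -1.49 on the log2 scale (standard error 0.119, 95% interval -1.74 to -1.24, adjusted p = 6.12e-09). The direct comparison placed shRNA2 below shRNA1 by -0.57 (standard error 0.115, adjusted p = 8.78e-04). Each of these calls held in all 15 alternative settings. Against nt-shRNA replicate 1 alone, the lower control, the differences were -0.67 (adjusted p = 7.59e-04) and -1.24 (adjusted p = 1.99e-07), and against nt-shRNA replicate 2 alone they were -1.14 and -1.71. With 1 control library, here and for the other fits that leave out a control, the spread comes from the shRNA groups alone, and the lone control is assumed to vary as they do.

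**Figure D2:**
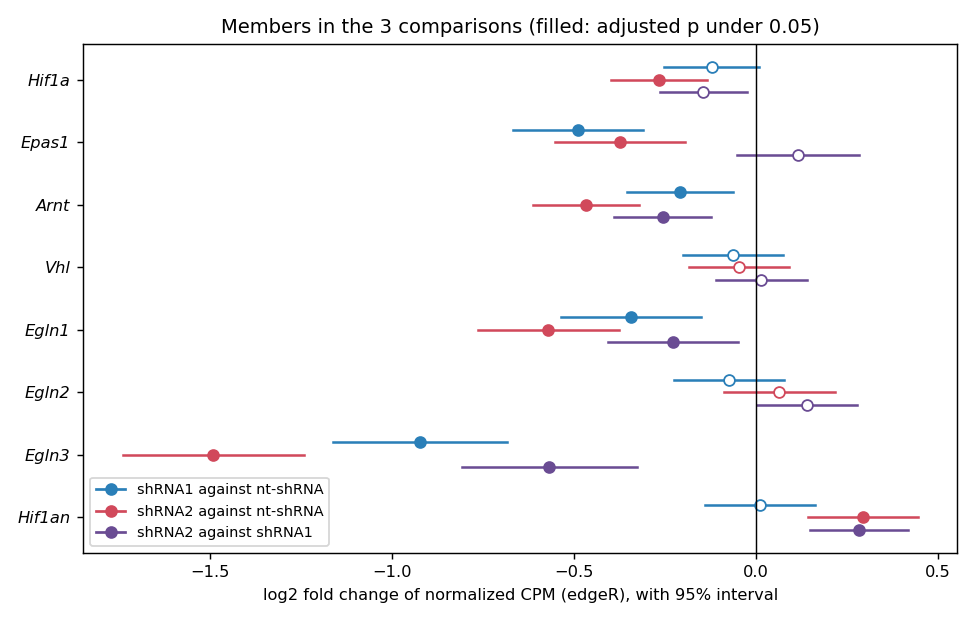
Log2 fold change (x axis, edgeR) of each member in the 3 comparisons with its 95% interval; filled points had an adjusted p under 0.05. The shRNA2 decrease is largest for *Egln3* (-1.49), and *Hif1an* is the only member with a called increase (0.29).

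The makeup of the hydroxylase RNA differed accordingly. Per length of exon, *Egln3* was 23.1% and 26.4% of the summed *Egln1*, *Egln2* and *Egln3* level in nt-shRNA, 16.3% to 17.8% in shRNA1 and 11.1% to 12.9% in shRNA2. *Egln2* was 38.6% and 31.4% in nt-shRNA, 41.6% to 42.7% in shRNA1 and 48.1% to 52.3% in shRNA2, and it was the largest of the 3 in every library but nt-shRNA replicate 2. *Egln1* was 38.2% and 42.2% in nt-shRNA, 40.6% to 41.2% in shRNA1 and 36.5% to 39.0% in shRNA2. Each shRNA range overlapped the controls, and the ranges of the shRNAs did not overlap each other. Shares do not change with the scaling of a library, since each is a ratio within it, and one share can move because another gene did.

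*Vhl*, the substrate receptor of the ligase and the gene lost in von Hippel-Lindau disease, lies on chromosome 6 from 113623959 to 113631633. It was at 69.8 and 66.5 CPM in nt-shRNA, 66.3, 63.4 and 66.0 in shRNA1, and 68.9, 63.9 and 65.0 in shRNA2. All libraries lay within a narrow range. The log2 difference was -0.06 in shRNA1 (95% interval -0.20 to 0.07, adjusted p = 0.497), -0.05 in shRNA2 (95% interval -0.18 to 0.09, adjusted p = 0.556) and 0.02 between the shRNAs (adjusted p = 0.868). Of the members, *Vhl* had the smallest difference in shRNA2 in the full fit. In TPM that of *Hif1a* (-0.04) was smaller than that of *Vhl* (0.18).

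*Hif1an*, the gene of FIH, lies on chromosome 19 from 44562850 to 44576274. Its level was 76.5 and 76.1 CPM in nt-shRNA, 73.3, 78.0 and 79.2 in shRNA1, and 88.2, 102.8 and 89.7 in shRNA2. The shRNA1 libraries lay on both sides of the controls and every shRNA2 library lay above all others. *Hif1an* rose by 0.29 on the log2 scale in shRNA2 (standard error 0.0719, adjusted p = 0.00184) and was 0.28 higher there than in shRNA1 (standard error 0.0644, adjusted p = 0.00222). Both calls held in all 15 settings. With shRNA1 the difference was 0.01 (95% interval -0.14 to 0.16, adjusted p = 0.927). In the ratio of CPM per length, *Hif1an* stood at 0.678 and 0.504 of *Egln1* in nt-shRNA, at 0.723 to 0.753 in shRNA1 and at 0.962 to 1.19 in shRNA2.

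The direct comparison of the KDs asks whether the hairpins, which differ in where they bind *Eftud2*, gave the same levels. It called 4 of 8 members, *Arnt*, *Egln1* and *Egln3* lower and *Hif1an* higher in shRNA2, against 35.6% of all tested genes, 16.9% higher and 18.7% lower. The members' median log2 difference was -0.06, beside 0.00 for all tested genes. The ranges of the shRNAs did not overlap for 6 members, beside 47.8% of all tested genes.

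**Figure D3:**
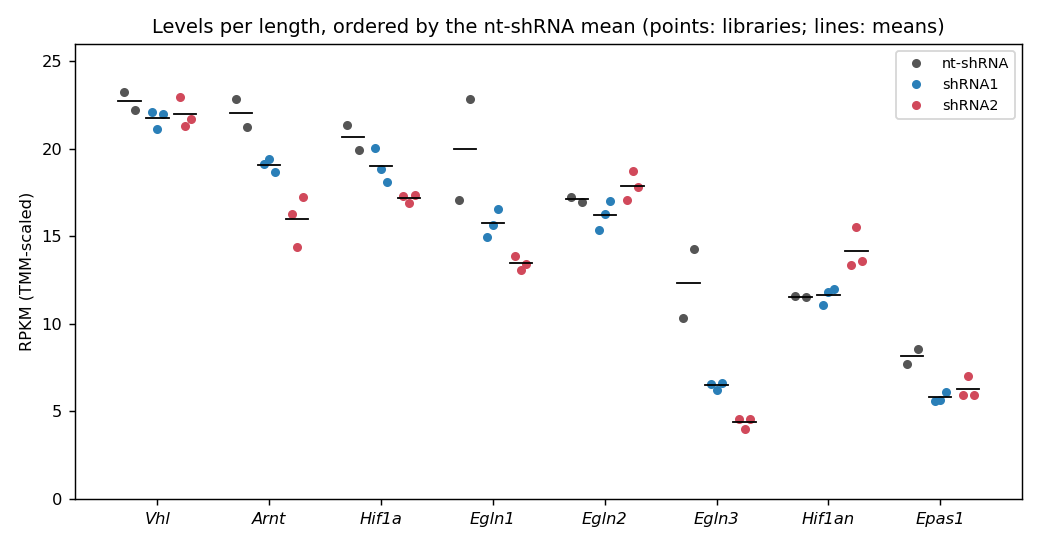
Level per length (RPKM, CPM per kilobase of exon) of each member by group, with points for libraries and lines for means, ordered by the nt-shRNA mean. *Egln3* moves from the sixth place in nt-shRNA (12.3 RPKM) to the last in shRNA2 (4.39), whereas *Vhl* has the highest mean in each group.

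To compare genes with each other, CPM was divided by the exon length of the deposited table (RPKM). In nt-shRNA the order of mean levels was *Vhl* 22.7, *Arnt* 22.1, *Hif1a* 20.7, *Egln1* 20.0, *Egln2* 17.1, *Egln3* 12.3, *Hif1an* 11.6 and *Epas1* 8.15 RPKM. The first 5 overlapped their neighbours in this order, as did *Egln3* and *Hif1an*, so only *Egln2* above *Egln3* and *Hif1an* above *Epas1* were separate steps. In shRNA1 the order was *Vhl* 21.8, *Arnt* 19.1, *Hif1a* 19.0, *Egln2* 16.2, *Egln1* 15.8, *Hif1an* 11.6, *Egln3* 6.49 and *Epas1* 5.80, and only *Arnt* and *Hif1a*, and *Egln2* and *Egln1*, overlapped. In shRNA2 it was *Vhl* 22.0, *Egln2* 17.9, *Hif1a* 17.2, *Arnt* 15.97, *Hif1an* 14.2, *Egln1* 13.5, *Epas1* 6.29 and *Egln3* 4.39, with the ranges of neighbours from *Egln2* to *Egln1* overlapping. *Hif1a* was above *Epas1* per length in every library, and *Egln3* passed from above *Epas1* in the controls to below it in shRNA2.

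The control libraries differed from each other in some members. Replicate 2 was above replicate 1 by 0.47 on the log2 scale for *Egln3* and by 0.42 for *Egln1*, differences larger than those of 89.5% and 87.6% of all tested genes. For *Epas1* it was above by 0.15, and for *Hif1an* and *Egln2* the controls differed by -0.01 and -0.02. Of the 32 tested HIF target genes that are not members, 25 were higher in replicate 2, with a median difference over the whole list of 0.12 beside 0.00 for all tested genes. Why the controls differ was not tested. The SD in CPM of *Egln3* was 7.45 in nt-shRNA, 0.570 in shRNA1 and 0.937 in shRNA2, and that of *Egln1* was 14.7, 2.86 and 1.41. The fit shares its estimate of spread between the groups. For these genes the standard errors, intervals and adjusted p-values against nt-shRNA therefore do not carry the full spread of the controls.

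The direction of the smaller differences depended on how libraries were scaled. In TPM, the length-adjusted levels of each library sum to the same total. The ratio of TPM to RPKM was 2.75 and 3.05 in nt-shRNA replicates 1 and 2, and ran from 3.32 to 3.45 in the KD libraries. Scaling to TPM in place of TMM thus raised every gene of shRNA1 by 0.24 and of shRNA2 by 0.22 on the log2 scale against the nt-shRNA group. Against nt-shRNA replicate 2 alone, TPM raised them by less. On that scale *Arnt* was at 63.9 TPM in nt-shRNA and 65.2 in shRNA1, and *Hif1a* at 59.9 and 64.9, so that both turned from lower to slightly higher with shRNA1, as did *Vhl* and *Egln2*, which were not called. In shRNA2 only *Vhl*, also not called, turned direction in TPM. *Vhl* was at 65.9 TPM in nt-shRNA, 74.3 in shRNA1 and 74.4 in shRNA2, and *Egln2* at 49.6, 55.4 and 60.5, and for both genes each KD lay above the controls without overlap on this scale. These levels in TPM were not tested. *Egln3* was lower in TPM in both KDs, at 36.0 in nt-shRNA, 22.2 in shRNA1 and 14.9 in shRNA2, with no overlap of the groups. *Epas1* was lower in shRNA1 without overlap, at 23.7 in nt-shRNA and 19.8, but at 21.3 in shRNA2 its range overlapped the controls. *Egln1* averaged 58.4 in nt-shRNA, 53.8 in shRNA1 and 45.6 in shRNA2, and both KDs overlapped the controls. *Arnt* in shRNA2, at 54.1, was below the controls without overlap, and *Hif1an* was above them in both KDs, at 33.5, 39.7 and 47.9. The median differences of the members (-0.17) and of the coactivator list below (-0.06) in shRNA1 are smaller than this shift, so their sign turns with the scaling, whereas those of the HIF target genes below are larger than it.

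Other genes of the pathway were taken from 5 lists. Their counts are to be read against all tested genes, of which 13.8% were called higher and 17.1% lower in shRNA1, 27.2% and 28.7% in shRNA2, and 16.9% and 18.7% in shRNA2 against shRNA1. Of the 6 genes of the VHL ligase and its neddylation, all tested, 1 rose and 0 fell in shRNA1 (median log2 fold change 0.03), 3 rose and 1 fell in shRNA2 (median 0.18), and 2 were higher and 1 lower in shRNA2 than in shRNA1 (median 0.14). *Eloc*, elongin C, which bridges VHL to the cullin, was at 85.0 and 84.1 CPM in nt-shRNA, 113.9, 109.9 and 93.3 in shRNA1 and 123.3, 104.6 and 121.8 in shRNA2. It rose by 0.32 in shRNA1 (adjusted p = 0.00661, or 0.0526 without nt-shRNA replicate 2) and by 0.46 in shRNA2 (adjusted p = 1.11e-04). *Rbx1*, the RING subunit, rose by 0.23 in shRNA2 (adjusted p = 0.00812, or 0.0904 without nt-shRNA replicate 2). *Ube2m*, the enzyme that conjugates NEDD8 to cullins, rose by 0.19 in shRNA2 (adjusted p = 0.0391), and *Elob*, elongin B, fell by 0.24 (adjusted p = 0.0363), calls that were lost in 6 and 5 of 15 settings. At the highest adjusted p the *Ube2m* difference was 0.14 (0.273, without nt-shRNA replicate 2) and that of *Elob* was -0.11 (0.453, without nt-shRNA replicate 1). The scaffold *Cul2* was not called in shRNA2 (0.16, adjusted p = 0.0653), although 6 of 15 settings called it. Between the shRNAs, the calls were *Rbx1* and *Ube2m* higher and *Elob* lower in shRNA2. Each was lost in 4 of 15 settings, with an adjusted p of up to 0.122, 0.175 and 0.246.

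Of 13 relatives of the HIF subunits in the bHLH-PAS family, 9 were tested, and *Npas1*, *Npas3*, *Npas4* and *Sim1* were below the filter. In shRNA1, 1 rose and 1 fell (median 0.21), in shRNA2 4 rose and 2 fell (median 0.21), and between the shRNAs 0 were higher and 2 lower in shRNA2 (median -0.08). *Hif3a*, the gene of the alpha subunit that can restrain the others, was at 31.2 and 34.9 CPM in nt-shRNA, 24.4, 21.7 and 27.1 in shRNA1, and 14.2, 10.8 and 15.9 in shRNA2. The 3 groups did not overlap. *Hif3a* fell by 1.28 in shRNA2 (adjusted p = 7.32e-08) and by 0.44 in shRNA1 (adjusted p = 0.00902), a call lost with library size alone (0.05002) and without shRNA1 replicate 2 (0.0558) or nt-shRNA replicate 2 (0.111). *Arntl2*, a clock gene of the ARNT type, rose by 0.52 in shRNA1 (adjusted p = 9.33e-04) and by 0.54 in shRNA2 (adjusted p = 2.06e-04), from 9.97 and 10.3 CPM in the controls to between 14.2 and 15.3 in the KD libraries. *Ahrr*, the repressor of AHR, was at 3.22 and 4.08 CPM in nt-shRNA, 4.24, 4.34 and 4.49 in shRNA1, and 2.28, 2.89 and 2.71 in shRNA2. The shRNA1 difference was 0.25 (adjusted p = 0.271), and shRNA2 was 0.73 lower than shRNA1 (adjusted p = 0.00192). Against nt-shRNA, *Ahrr* fell by 0.48 in shRNA2 (adjusted p = 0.0306), a call lost in 4 of 15 settings. Without nt-shRNA replicate 2 the difference was -0.30 (adjusted p = 0.304).

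The 18 coactivators and regulators of HIF stability were all tested. In shRNA1, 3 rose and 4 fell (median -0.06), in shRNA2 6 rose and 6 fell (median 0.06), and in shRNA2 5 were higher and 2 lower than in shRNA1 (median 0.00). *Crebbp*, the gene of the coactivator CBP, stood at 47.8 and 50.3 CPM in nt-shRNA, 62.9, 73.5 and 65.3 in shRNA1, and 92.5, 103.3 and 85.0 in shRNA2. It rose by 0.45 in shRNA1 (adjusted p = 4.59e-04) and by 0.93 in shRNA2 (adjusted p = 3.17e-08), with no overlap of the 3 groups. *Pkm*, the pyruvate kinase gene whose M2 form can coactivate HIF1, fell by 0.57 (adjusted p = 2.06e-05) and by 0.77 (adjusted p = 1.05e-07). *Rack1*, which promotes oxygen-independent loss of HIF1 alpha, fell by 0.50 (adjusted p = 1.46e-05) and by 0.65 (adjusted p = 1.11e-07). *Nfkb1*, an activator of *Hif1a* transcription, differed by -0.10 in shRNA1 (adjusted p = 0.385) and rose by 0.29 in shRNA2 (adjusted p = 0.00702, or 0.127 without nt-shRNA replicate 1).

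Of 25 other dioxygenases that use oxygen, collagen prolyl hydroxylases, JmjC demethylases and TET enzymes among them, 23 were tested, and *P4ha3* and *Kdm4d* were below the filter. In shRNA1, 7 rose and 5 fell (median 0.04), in shRNA2 13 rose and 3 fell (median 0.20), and in shRNA2 5 were higher and 1 lower than in shRNA1 (median 0.06). *P4ha1*, a collagen prolyl hydroxylase and HIF target, was at 121.0 and 133.0 CPM in nt-shRNA, 67.8, 64.0 and 76.1 in shRNA1, and 38.7, 32.0 and 40.2 in shRNA2. It fell by 0.87 (adjusted p = 5.81e-07) and by 1.78 (adjusted p = 3.60e-11), against the direction of the list median. *Tet2*, which oxidizes methylcytosine, rose by 0.52 (adjusted p = 3.36e-04) and by 1.57 (adjusted p = 2.94e-10). *Kdm4c*, a demethylase of histone H3, fell by 0.51 (adjusted p = 1.61e-05) and by 0.65 (adjusted p = 1.78e-07).

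The genes that HIF is known to activate were mostly lower. Of 34 tested target genes on a list of 35 (*Epo* was below the filter), 4 rose and 19 fell in shRNA1, with a median log2 fold change of -0.41, and 6 rose and 24 fell in shRNA2, with a median of -0.83. In the direct comparison 4 were higher and 21 lower in shRNA2, with a median of -0.37. Of all tested genes, 17.1%, 28.7% and 18.7% were called lower in these comparisons. Without the members *Egln1* and *Egln3*, 32 targets remained, of which 17 fell in shRNA1 and 22 in shRNA2. *Pgk1*, a glycolytic kinase, was at 678 and 753 CPM in nt-shRNA, 369, 325 and 408 in shRNA1, and 203, 193 and 232 in shRNA2. It fell by 0.96 (adjusted p = 1.95e-07) and by 1.78 (adjusted p = 3.60e-11). *Bhlhe40*, a transcriptional repressor, fell by 0.83 (adjusted p = 4.33e-06) and by 1.91 (adjusted p = 5.68e-11), and *Tfrc*, the transferrin receptor, fell by 1.22 (adjusted p = 6.32e-08) and by 1.41 (adjusted p = 1.04e-09). The lowest values on the list, which were looked up after the fit, were -1.34 in shRNA1 for *Ndrg1*, a stress-responsive gene, and -2.88 in shRNA2 for *Bnip3*, a mitophagy receptor. *Edn1*, the endothelin 1 gene, was the furthest against the list, at 0.375 and 0.314 CPM in nt-shRNA, 1.35, 1.38 and 1.21 in shRNA1, and 2.74, 3.16 and 2.02 in shRNA2. It had 10 and 9 counts in the controls and passed the filter only through the KD libraries, in which it was high, so its levels are given with no test. It is among the 4, 6 and 4 genes counted as higher on this list, so those counts hold a call that the filter favoured.

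**Figure D4:**
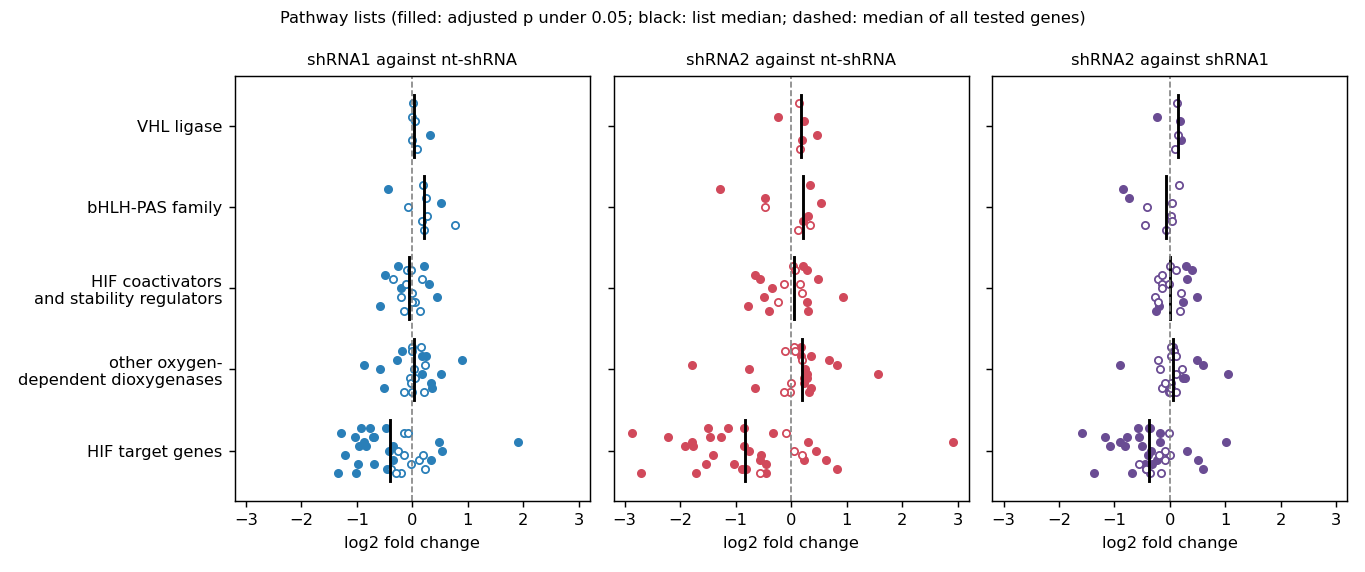
Log2 fold change (x axis) of every tested gene of the 5 pathway lists in the 3 comparisons; filled points had an adjusted p under 0.05, black lines are list medians and dashed lines the median of all tested genes. The HIF target genes have medians of -0.41, -0.83 and -0.37, and the other lists have medians between -0.08 and 0.21.

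Over the 8 libraries, the genes whose log2 CPM was most like that of *Egln3* were *Alpk3* (Pearson r = 0.997), *Sh3pxd2a* (0.992) and *Aldh1b1* (0.991), and among the members it was most like *Egln1* (0.956). Those most like *Hif1a* were *Ankrd28* (0.988), *Uqcrc2* (0.984) and *Ttc1* (0.984), with *Arnt* (0.921) the nearest member and *Hif1an* (-0.835) the furthest. These values are descriptions over libraries that form 3 groups, so each reflects mainly the group means. *Alpk3* was at 35.4 and 43.8 CPM in nt-shRNA, 26.1, 25.8 and 27.9 in shRNA1, and 20.97, 19.3 and 21.9 in shRNA2, and so shared with *Egln3* the higher second control.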

How the data were processed

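RNA-Seq of poly(A) RNA (NEBNext Ultra II, 100 bp paired reads) was analysed from 8 libraries of R1 mESCs, mapped to groups by their titles. The authors aligned reads to mm10 (GRCm38) with STAR in end-to-end mode and deposited raw counts per gene from featureCounts 1.6.2 on GENCODE M24, without strand and without multi-mapping reads, so overlapping or near-identical genes are uncertain. The deposited exon length (in bases) served for RPKM and TPM. Names came from GENCODE M21 for 55144 of 55385 genes.

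The tests used edgeR 4.0.16 in R 4.3.3, with filterByExpr (minimum count 10), TMM (factors 0.935 to 1.04), glmQLFit and glmQLFTest over all 8 libraries, group being the only term, Benjamini-Hochberg adjustment over 17445 genes and a threshold of 0.05. Standard errors came from the F statistic. The code was tested on simulated data. Within groups, libraries differed by a chi-square per gene of 3.00 to 11.6, so none repeats another. The labels call the libraries biological replicates without naming separate cultures, so p-values measure the spread between these samples, pooled over the groups. The controls are thereby assumed to vary as the KD libraries do. An exact test of 3 against 2 or 3 cannot go below 0.1 two-sided. A count of 3 corresponds to 0.100 to 0.153 CPM.

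The members and lists were chosen with earlier results of these data known. Named genes are *Eftud2*, the members, of each list the 2 tested genes with the smallest adjusted p in each comparison and the gene furthest against the list median with shRNA2, the 3 genes most correlated (prior count 2) with *Hif1a* and *Egln3*, and genes overlapping a member. Marker lists covered naive pluripotent, fibroblast, endothelial, primitive endoderm, trophoblast and neural cells. The 15 alternatives were DESeq2 1.42.0 (the authors' test), its size factors in edgeR, no scaling but library size, all genes kept, a minimum of 10 counts per library, a fit of just the groups compared, a block for the replicate number, and each library left out. Figures used Python 3.11.15, pandas 2.3.3 and matplotlib 3.10.9. Splicing, protein and zebrafish data were not analysed here.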

Additional observations from a re-analysis of the deposited data

How the results depend on the processing

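Of 360 log2 fold changes of members under the alternatives, 334 kept their direction and side of the threshold, 14 lost the call, 4 gained it and 8 changed direction. With 12 values of other named genes, 20 values changed direction, of which 0 were called under either setting. With library size alone these were *Vhl* (0.051 in shRNA1, 0.042 in shRNA2, -0.0093 between the shRNAs), *Egln2* (0.039), *Ube2m* (0.11), *Elob* (0.10) and *Nfkb1* (0.0100) in shRNA1. With at least 10 counts in every library, *Ube2m* (0.025) and *Elob* (0.018) turned in shRNA1, as they did with only the groups compared (0.016 and 0.0093), and without a filter *Vhl* turned between the shRNAs (-0.0019). With each library left out, the shRNA1 differences ran from -0.012 to 0.044 for *Hif1an*, from -0.054 to 0.071 for *Ube2m* and from -0.14 to 0.12 for *Elob*, and the difference of *Vhl* between the shRNAs ran from -0.018 to 0.038. Scaling by library size alone shifted the median of all genes by 0.11 in shRNA1 and 0.09 in shRNA2, called 2 members in shRNA1 instead of 4 (*Arnt* and *Egln1* were lost), and moved the share of higher genes among all calls from 44.7% to 70.5% in shRNA1 and from 48.7% to 58.9% in shRNA2. With each library left out, 2948 to 5903 genes were called in shRNA1 (5388 in the full fit), the fewest without nt-shRNA replicate 1, and 3 to 4 members. In shRNA2 all 15 alternatives called 6 members. Between the shRNAs they called 3 to 5. The replicate numbers were not taken to pair the libraries, since no correlation of deviations between same-numbered libraries was over 0.1 (-0.0259 to 0.0742), a limit set here. The same-numbered pairs of shRNA1 and shRNA2 were all positive (0.0223, 0.0566 and 0.0742), but shRNA2 replicate 1 was closer to shRNA1 replicate 2 (0.0277). With 2 controls the deviations of the controls mirror each other, so correlations with them cannot decide whether the numbers pair. For its qPCR the study compared each KD replicate with its corresponding control replicate. With the number as a block, 4, 6 and 5 members and 6018, 10034 and 6518 genes were called in shRNA1, in shRNA2 and between them, and the *Hif1a* difference between the shRNAs was called (adjusted p = 0.0404). Depth limits the results of the members little, since every member had at least 235 counts. It limits some listed genes more, such as *Ahrr*, which had 49 counts in shRNA2 replicate 1. The 2 controls, which differed for *Egln1* and *Egln3*, are a further limit, and the sizes of these limits were not compared.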
